A study of Homo sapiens with 6 samples.

Results

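The genes described here are 38 genes of glycolysis and of the response to low oxygen, measured in KMS-27 cells after silencing of Che-1. They were taken by symbol from the authors' spike-in table, which holds all 38 among its 16444 genes, and from the table of FPKM (sequenced fragments relative to transcript length and library size), which holds 35 of them among 12075 genes. The list covers 17 glycolytic enzymes and lactate dehydrogenases, 9 sugar and lactate transporters and regulatory kinases, and 12 genes of the hypoxia response.

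KMS-27 is an established human multiple myeloma line, a malignancy of plasma cells, and the labels give bone marrow as its tissue. The siChe-1 group (3 libraries) received an siRNA against Che-1, the RNA polymerase II-binding protein encoded by AATF, and the siControl group (3 libraries) a control siRNA. All libraries were total RNA sequenced after ribosomal RNA removal, made from 500 ng of RNA of this 1 line, with external spike-in RNAs. No label says that replicates were grown separately, so a p-value here weighs the spread among these libraries alone, which could be technical. Neither the siRNA dose nor the time after transfection was given in the sources used here.

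Glycolysis splits glucose into pyruvate in the cytosol. Hexokinase and phosphofructokinase commit the sugar to the pathway, the later steps yield ATP, and lactate dehydrogenase turns pyruvate into lactate, which leaves the cell through monocarboxylate transporters. When oxygen is low, hypoxia-inducible factors (HIF) escape prolyl hydroxylation and raise the transcription of most of these enzymes, together with genes of blood vessel growth, mitophagy and chromatin demethylation. Tumour cells, myeloma cells among them, often run the pathway at a high rate in the presence of oxygen.

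AATF itself had 14.2, 14.2 and 16.9 FPKM in the siChe-1 libraries, against 97.0, 88.8 and 119 FPKM in the siControl libraries, so that every siChe-1 library was below every siControl library. All 8 plasma cell markers were in the FPKM table, with IGJ, the joining chain of immunoglobulins, at a mean of 9719 FPKM in siChe-1 and 8739 FPKM in siControl libraries. Of 14 markers of T, NK, myeloid, erythroid and stromal cells, 2 were in the FPKM table, both at means under 1 FPKM. Whole reads could be recovered for 5 libraries, with 21719956 to 24978242 recovered gene reads per library. These totals leave out 28 genes whose reads were not recovered. Those genes held 7.99% of the siControl and 8.10% of the siChe-1 signal on the spike-in scale. The second listed FPKM value stood apart in both groups: it was the highest of its group in siChe-1 and in siControl libraries alike for 16 of the 24 genes of the list with a mean FPKM of 10 or more, and for 27.2% of all 6285 genes at that level. It belongs to 1 library per group, and the calls below that change without it are named as such.

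**Figure D1:**
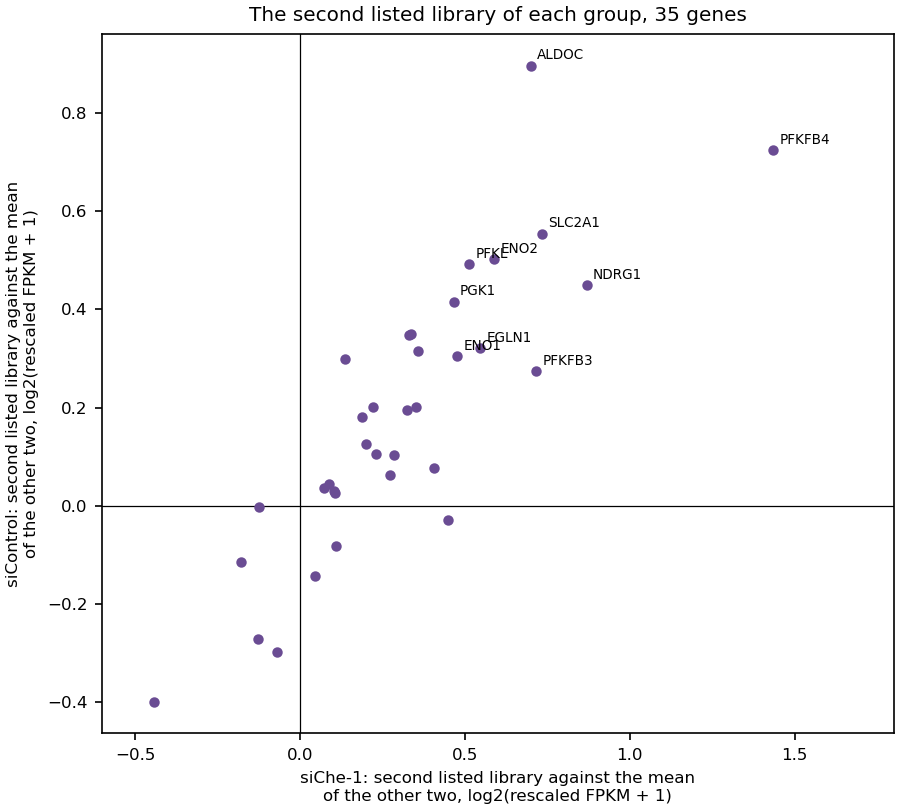
Level of the second listed library against the mean of the others of its group, as a log2 ratio of rescaled FPKM + 1, in siChe-1 (horizontal) and in siControl (vertical), with 1 point for each of 35 genes of the list. The second value was the highest of both groups for 24 of the 35 genes, and most points lie above 0 on both axes.

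Measured against other genes, most tested enzymes of glycolysis were lower after Che-1 silencing. The main FPKM test called no hypoxia gene lower, although other tests given below called some lower. The 24 genes of the list at a mean FPKM of 10 or more were tested with limma on log2(FPKM + 1) together with all 6285 such genes. Among these 24, 11 fell and 2 rose at an adjusted p under 0.05, against 15.1% of all tested genes called lower and 15.1% called higher. Their median difference was -0.33 on the log2 scale, against -0.004 over all tested genes, and -0.45 without the second siChe-1 value. The falls lay in the pathway itself: 10 of the 14 tested enzymes fell and 0 rose, with a median of -0.52, whereas 0 of the 8 tested hypoxia genes fell and 2 rose, with a median of 0.015. The difference between these groups of genes was not tested. With the position in the FPKM list as a block, a setting chosen after seeing the data, 16 of the 24 fell and 3 rose, against 29.3% and 28.5% of all genes, and ADM and P4HA1 were then called lower among the hypoxia genes (limma, adjusted p = 0.00336 and 0.0144). The count of 11 became 7 without the first siChe-1 value (9.5% of all genes lower) or without the third (7.98%). It was 10 without the second siChe-1 value (12.5%) and 9 without the second siControl value (14.2%). The split of all calls depended on the scaling, with 949 genes higher and 948 lower here, 592 and 1279 with FPKM as deposited, 634 and 1207 with factors set before the filter, and 1221 and 713 with upper quartile scaling. Across these scalings 10 to 12 of the 24 genes fell.

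**Figure D2:**
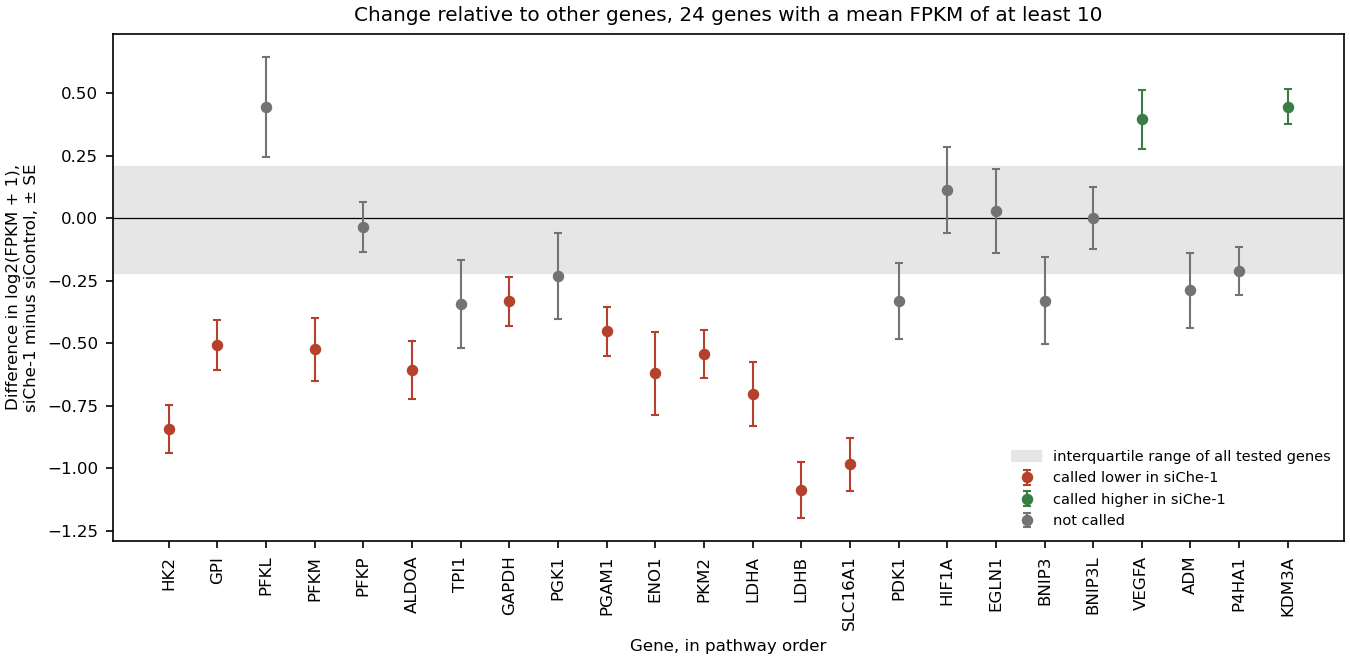
Difference in log2(FPKM + 1), siChe-1 minus siControl, with its standard error, for the 24 tested genes in pathway order. The grey band spans the interquartile range of all 6285 tested genes. The 11 genes called lower run from HK2 to SLC16A1, and the 2 called higher, VEGFA and KDM3A, are hypoxia genes.

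Glucose enters the cell through SLC2A1 (GLUT1) and SLC2A3 (GLUT3), a high-affinity transporter best known from neurons. Both were below the minimum level. SLC2A3 (hg19 chromosome 12, 8071824 to 8088892, minus strand) had 2.64, 4.0 and 3.0 FPKM in siChe-1 libraries, against 0.62, 0.70 and 0.66 FPKM in siControl libraries. The groups did not overlap. With the minimum lowered to a mean FPKM of 1, SLC2A3 rose by 1.35 ± 0.13 on the log2 scale (SE; limma, adjusted p = 0.000994), where 13.4% of all 10778 genes were called higher, and the pseudocount understates a change at this level. The whole reads behind it were 201 and 309 in siChe-1 replicates 1 and 2, against 45, 56 and 56 in siControl replicates 1 to 3. SLC2A1 had 4.0, 7.35 and 4.19 FPKM in siChe-1 libraries, against 5.87, 9.76 and 7.42 FPKM in siControl libraries, and the groups overlapped. With the minimum lowered to 1, its difference of -0.48 ± 0.23 did not pass (SE; limma, adjusted p = 0.156). The authors' Cuffdiff test put SLC2A1 lower (log2 ratio -0.57, q = 0.000601). SLC2A3 accounted for 38.9% ± 3.4 of the summed FPKM of the pair in siChe-1 and 8.15% ± 1.4 in siControl libraries (SD, n = 3 each; exact permutation test p = 0.1, the smallest that 3 against 3 allow). SLC2A3 is nearly identical to SLC2A14, and its reads could be split between them by the authors' counting.

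Hexokinase traps glucose as glucose 6-phosphate. HK2 is a mitochondria-bound form common in tumour cells (chromosome 2, 75059782 to 75120481, plus strand). It had 12.9, 15.9 and 13.2 FPKM in siChe-1 libraries, against 26.9, 28.0 and 27.6 FPKM in siControl libraries. It fell by 0.84 ± 0.097 on the log2 scale (SE; limma, adjusted p = 0.0014), with no overlap between the groups. HK1, the form found in most tissues, stood at 2.92 to 3.30 FPKM in siChe-1 and 2.89 to 3.47 FPKM in siControl libraries, and its groups overlapped. HK2 was thus 81.7% ± 1.0 of the summed hexokinase FPKM in siChe-1 and 89.7% ± 0.90 in siControl libraries (SD, n = 3 each; exact permutation test p = 0.1).

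The RefSeq promoter windows of HK2, LDHA, LDHB and KDM3A are printed because these genes include the largest fall (LDHB) and the largest rise (KDM3A) among the tested genes with a window. SLC16A1, SLC2A3, PFKFB2, BNIP3L, VEGFA and NDRG1 had no window in the table used here. Each line gives the 250 bases before an annotated start, 5′ to 3′ on the gene's strand, from RefSeq on GRCh38.p14, a later build than the hg19 of the measurements. Capitals mark ACGTG and GCGTG on either strand, the core letters of the hypoxia response element, including the palindrome CACGTG, the E-box read by MYC and USF factors, which overlaps ACGTG.
HK2, first start, chr2:74833877-74834126, plus strand: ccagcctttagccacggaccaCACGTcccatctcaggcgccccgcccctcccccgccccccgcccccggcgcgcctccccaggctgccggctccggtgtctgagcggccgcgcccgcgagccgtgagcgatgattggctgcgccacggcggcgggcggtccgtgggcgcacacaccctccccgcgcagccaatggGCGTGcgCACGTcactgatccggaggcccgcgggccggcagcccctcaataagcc
HK2, second start, chr2:74834920-74835169, plus strand: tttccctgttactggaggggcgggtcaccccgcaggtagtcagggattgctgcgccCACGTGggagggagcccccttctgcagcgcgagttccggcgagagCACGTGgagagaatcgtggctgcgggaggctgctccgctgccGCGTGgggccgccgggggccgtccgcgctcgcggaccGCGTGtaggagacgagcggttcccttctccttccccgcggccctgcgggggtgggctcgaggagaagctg
LDHA, first start, chr11:18394313-18394562, plus strand: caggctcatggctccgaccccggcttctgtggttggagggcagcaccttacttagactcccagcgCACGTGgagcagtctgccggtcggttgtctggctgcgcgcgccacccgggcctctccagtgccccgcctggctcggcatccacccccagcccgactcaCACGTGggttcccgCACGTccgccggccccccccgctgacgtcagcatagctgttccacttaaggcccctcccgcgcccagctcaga
LDHB, chr12:21657843-21658092, minus strand: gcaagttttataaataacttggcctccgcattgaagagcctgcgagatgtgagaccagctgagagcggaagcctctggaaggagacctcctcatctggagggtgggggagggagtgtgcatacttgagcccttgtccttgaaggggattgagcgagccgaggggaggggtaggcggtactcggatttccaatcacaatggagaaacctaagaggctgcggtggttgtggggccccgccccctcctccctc
KDM3A, first start, chr2:86441121-86441370, plus strand: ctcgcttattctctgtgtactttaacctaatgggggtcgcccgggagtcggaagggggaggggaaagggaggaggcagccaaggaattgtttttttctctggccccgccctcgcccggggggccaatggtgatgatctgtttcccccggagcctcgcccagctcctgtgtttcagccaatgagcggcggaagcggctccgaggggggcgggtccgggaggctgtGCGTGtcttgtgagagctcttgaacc

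The first LDHA window held 5 matches to ACGTG counted over both strands, all but 1 of them within 2 CACGTG palindromes, while the second LDHA window, which is not printed, and the LDHB window held 0. The windows of HK2 held 2 and 4 matches. KDM3A, which rose, had no ACGTG and 1 GCGTG in each of its 2 windows, the second of which overlaps the first and is not printed. RefSeq gave windows for 32 of the 38 genes, 60 windows in all, of which 38.3% held ACGTG on either strand, against 18.5% of all 35116 windows of the same length. GCGTG was in 33.3% of the 60 windows and in 32.2% of all windows, and CACGTG in 13.3% and 6.34%. By gene, 62.5% of the 32 genes and 21.7% of all genes held ACGTG in a window, and genes differ in their number of windows. Of the 10 genes called lower that had a window, 6 held it, a share close to that of the 32. Such a match is a description of the letters and not of binding.

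Phosphoglucose isomerase, GPI, fell. It had 43.0, 50.2 and 44 FPKM in siChe-1 libraries, against 66.8, 74.3 and 68.4 FPKM in siControl libraries, with no overlap (difference -0.51 ± 0.10 on the log2 scale, SE; limma, adjusted p = 0.00927). Phosphofructokinase-1, the main control point of the pathway, is built from PFKP, PFKM and PFKL subunits, of which PFKM passed the test. PFKM, the muscle type, had 13.0, 15.9 and 15 FPKM in siChe-1 libraries, against 19.0, 24.3 and 25.8 FPKM in siControl libraries, and fell by 0.52 ± 0.13 (SE; limma, adjusted p = 0.0188). That call was lost without the first or the third siChe-1 value or the third siControl value, with an adjusted p of up to 0.0725. No PFKM transcript passed in the authors' Cuffdiff test, with q = 0.136 for the most abundant (log2 ratio -0.52). PFKP, the platelet type and the most abundant subunit, was at 63.6, 70.8 and 69.8 FPKM in siChe-1 libraries, against 66.6, 73.2 and 84.3 FPKM in siControl libraries, which overlapped (difference -0.03 ± 0.10; limma, adjusted p = 0.824). PFKL, the liver type, had a difference of 0.44 ± 0.20 that did not pass (limma, adjusted p = 0.132). It passed without the second siControl value and with edgeR on the recovered reads (0.47 ± 0.13, adjusted p = 0.0201). The authors' Cuffdiff q-value of its most abundant transcript was 0.00997 (log2 ratio 0.41). As shares of the summed FPKM of the 3 subunits, PFKM made up 14.9% ± 0.20 in siChe-1 and 21.0% ± 0.94 in siControl libraries, and PFKL 15.4% ± 2.4 and 10.6% ± 1.9 (SD, n = 3 each; exact permutation test p = 0.1 for each).

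The bifunctional PFKFB enzymes set the level of fructose 2,6-bisphosphate, the activator of phosphofructokinase-1. PFKFB2, PFKFB3 and PFKFB4 were all below the minimum, with mean levels between 1.97 and 5.98 FPKM in siChe-1 and between 2.18 and 7.19 FPKM in siControl libraries, and none passed with the minimum lowered to 1. PFKFB3, the hypoxia-induced form with the highest kinase activity, was nonetheless 34.9% ± 3.8 of their summed FPKM in siChe-1 and 47.3% ± 3.7 in siControl libraries, with no overlap (SD, n = 3 each; exact permutation test p = 0.1). Among these, PFKFB4 varied most by library, at 0.91, 4.08 and 0.92 FPKM in siChe-1 and 0.85, 3.24 and 2.46 FPKM in siControl libraries. The authors' Cuffdiff test put the PFKFB3 transcript NM_001145443 lower (log2 ratio -1.07, q = 0.000601). The other PFKFB3 transcript, NM_004566, did not pass in it (log2 ratio -0.33, q = 0.504).

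Aldolase splits the hexose into triose phosphates. ALDOA, the muscle type, had 247, 300 and 282 FPKM in siChe-1 libraries, against 402, 461 and 485 FPKM in siControl libraries. It fell by 0.61 ± 0.12 on the log2 scale (SE; limma, adjusted p = 0.00844), with no overlap. ALDOC, the brain type, made up 1.51% of the aldolase FPKM in siChe-1 and 1.13% in siControl libraries. Triose phosphate isomerase, TPI1, was at 116, 161 and 140 FPKM in siChe-1 libraries, against 148, 211 and 208 FPKM in siControl libraries. The groups overlapped, and the difference of -0.34 ± 0.18 did not pass (limma, adjusted p = 0.183). The authors' Cuffdiff q-value of the most abundant TPI1 transcript was 0.00112 (log2 ratio -0.46).

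The later part of the pathway runs from GAPDH to pyruvate kinase. GAPDH, the gene of the list with the highest level in both groups, an enzyme that forms NADH and is often taken as a reference gene, had 843, 922 and 935 FPKM in siChe-1 libraries, against 1150, 1192 and 1288 FPKM in siControl libraries. It fell by 0.33 ± 0.097 (SE; limma, adjusted p = 0.0363), but this call was lost with upper quartile scaling and without any 1 of the 6 values, with adjusted p reaching 0.12. Neither GAPDH transcript passed in the authors' Cuffdiff test, with q = 0.112 for the more abundant (log2 ratio -0.52). PGK1, the first ATP-forming enzyme, was at 172, 246 and 188 FPKM in siChe-1 libraries, against 221, 294 and 241 FPKM in siControl libraries. Its groups overlapped (difference -0.23 ± 0.17; limma, adjusted p = 0.352), and the authors' Cuffdiff q-value was 0.0385 (log2 ratio -0.32). PGAM1, the mutase, was at 134, 150 and 148 FPKM in siChe-1 libraries, against 194, 207 and 232 FPKM in siControl libraries, and fell by 0.45 ± 0.098 (SE; limma, adjusted p = 0.0129). Its adjusted p reached 0.0545 without the first or the third siChe-1 value.

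ENO1, the enolase of most tissues, had 363, 524 and 401 FPKM in siChe-1 libraries, against 621, 777 and 699 FPKM in siControl libraries. It fell by 0.62 ± 0.17 (SE; limma, adjusted p = 0.0273), a call lost without the first or the third siChe-1 value or the second or the third siControl value, with an adjusted p of up to 0.101. ENO2, the neuronal enolase, was 0.813% of the enolase FPKM in siChe-1 and 0.433% in siControl libraries. Pyruvate kinase, listed as PKM2, had 446, 457 and 452 FPKM in siChe-1 libraries, against 703, 637 and 773 FPKM in siControl libraries. The groups did not overlap, and it fell by 0.54 ± 0.096 (SE; limma, adjusted p = 0.00649). The gene makes the M1 and M2 enzymes by a choice between a pair of exons, and the 2 transcripts with the M1 exon held 8.68%, 4.14% and 7.41% of its FPKM in siChe-1 libraries, against 10.9%, 8.23% and 11% in siControl libraries. This share did not pass (exact permutation test p = 0.2), and the second listed library was the lowest in both groups.

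**Figure D3:**
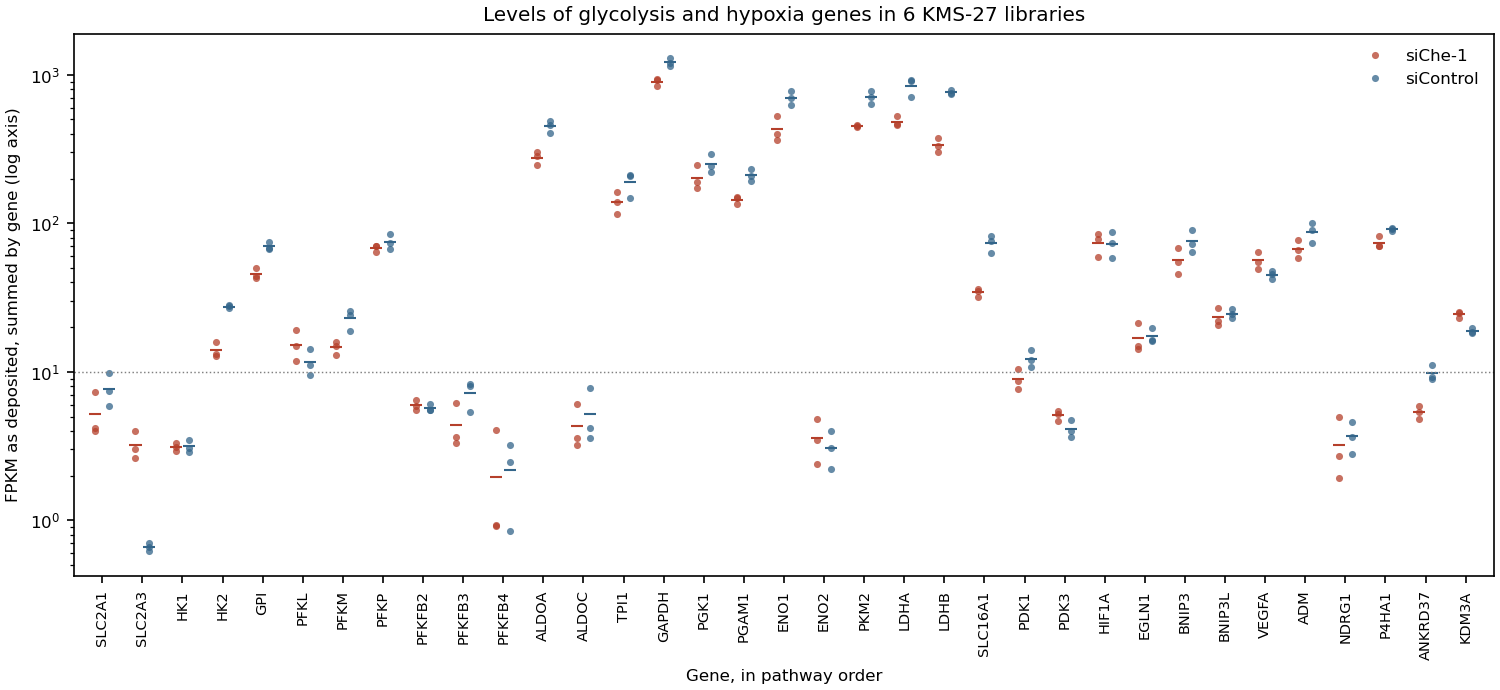
FPKM as deposited, summed by gene, on a log axis, for the 35 genes of the list in the FPKM table, in pathway order. Points are libraries and bars group means (n = 3 each), with siChe-1 left of siControl, and the dotted line is the minimum mean of 10 for the test. GAPDH, the lactate dehydrogenases, PKM2 and ENO1 lead in level, and SLC2A3 is the lowest gene in siControl libraries.

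All genes tested in lactate formation and export, at the end of the pathway, fell. LDHB and SLC16A1 had the largest falls of the 24 tested genes, followed by HK2 and LDHA. LDHB, the heart type of lactate dehydrogenase (chromosome 12, 21788275 to 21810789, minus strand), had 301, 376 and 330 FPKM in siChe-1 libraries, against 738, 758 and 785 FPKM in siControl libraries. It fell by 1.09 ± 0.11 on the log2 scale (SE; limma, adjusted p = 0.000969), with no overlap. LDHA, the muscle type and a classic HIF target (chromosome 11, 18415936 to 18429765, plus strand), had 529, 463 and 455 FPKM in siChe-1 libraries, against 900, 706 and 921 FPKM in siControl libraries. It fell by 0.70 ± 0.13 (SE; limma, adjusted p = 0.0068), also with no overlap. LDHB was 41.1% ± 4.4 of the summed lactate dehydrogenase FPKM in siChe-1 and 47.6% ± 3.6 in siControl libraries (SD, n = 3 each; exact permutation test p = 0.1), the closest values being 44.8% and 45.0%.

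SLC16A1 (MCT1), the importer and exporter of lactate on chromosome 1 (113454470 to 113498975, minus strand), had 35.8, 32.0 and 35.2 FPKM in siChe-1 libraries, against 82.5, 62.6 and 76.5 FPKM in siControl libraries. It fell by 0.98 ± 0.11 (SE; limma, adjusted p = 0.00112), with no overlap. SLC16A3 (MCT4), the hypoxia-induced exporter, was not in the FPKM table and had 3 and 12 whole reads in siChe-1 replicates 1 and 2, against 0, 2 and 4 in siControl replicates 1 to 3. Of the pyruvate dehydrogenase kinases, which keep pyruvate out of mitochondrial oxidation, PDK1 was tested with limma and did not pass, and PDK3 was below the minimum. PDK1 was at 7.64, 10.4 and 8.74 FPKM in siChe-1 libraries, against 11.9, 14.1 and 10.7 FPKM in siControl libraries (difference -0.33 ± 0.15; limma, adjusted p = 0.141). It passed as lower with edgeR on the recovered reads (adjusted p = 0.0325), and its Cuffdiff q-value was 0.00525 (log2 ratio -0.46). PDK3 had 4.64, 5.43 and 5.21 FPKM in siChe-1 libraries, against 3.65, 4.71 and 3.99 FPKM in siControl libraries. With the minimum lowered to 1, its difference of 0.28 ± 0.10 did not pass (SE; limma, adjusted p = 0.0823). The Cuffdiff q-value of its most abundant transcript was 0.0125 (log2 ratio 0.39). PDK3 made up 36.5% ± 1.9 of the summed PDK1 and PDK3 FPKM in siChe-1 and 25.2% ± 1.9 in siControl libraries (SD, n = 3 each; exact permutation test p = 0.1).

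In all, 13 such shares were compared and 9 had groups that did not overlap, each with an adjusted p of 0.144. The design cannot bring any of them under 0.05. How often shares in other gene families separate in this way was not counted, so the 9 cannot be set against a background. Nor are the 13 shares independent of each other. Those of PFKL, PFKM and PFKP add up to a fixed total, as do those of the PFKFB genes.

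**Figure D4:**
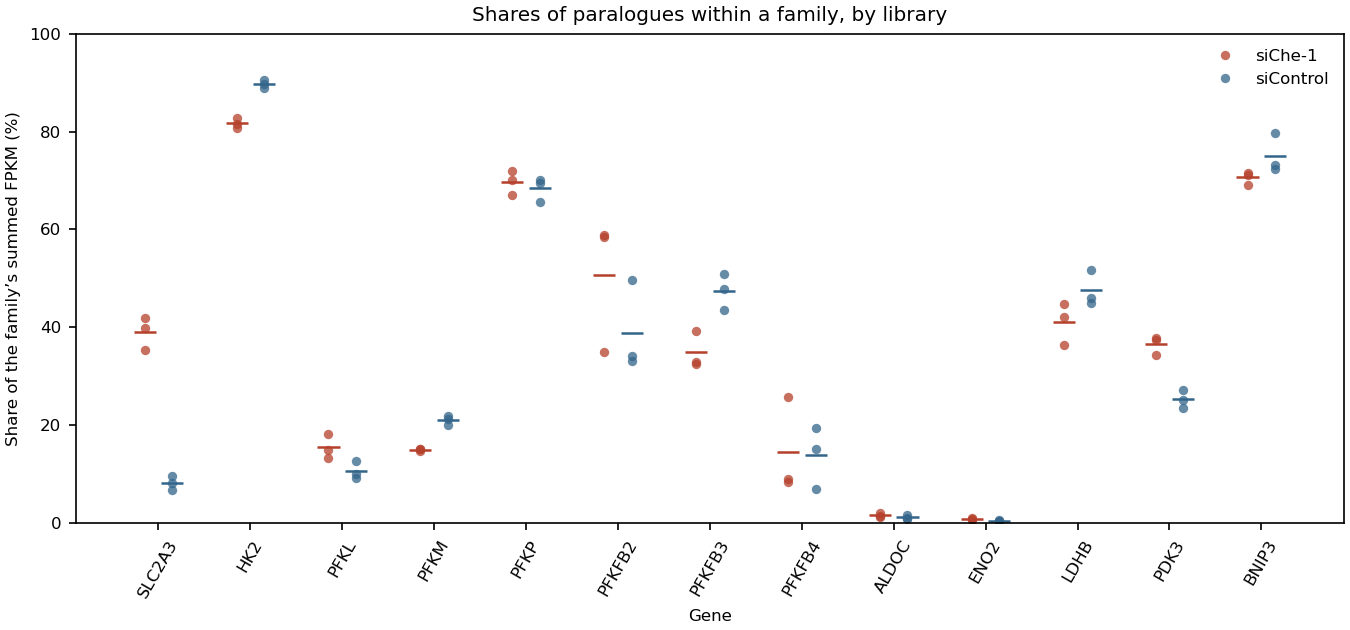
Share of 13 genes in the summed FPKM of their family, in percent, by library, with siChe-1 left of siControl and bars at group means (n = 3 each). SLC2A3 stands at 35.2% to 41.8% in siChe-1 and 6.70% to 9.57% in siControl libraries, the widest gap among these shares.

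Among the hypoxia genes, the regulators of the pathway did not pass in either direction. HIF1A, the oxygen-regulated subunit, was at 84.4, 58.8 and 78.3 FPKM in siChe-1 libraries, against 86.9, 58.0 and 74.0 FPKM in siControl libraries, and the groups overlapped (difference 0.11 ± 0.17; limma, adjusted p = 0.658). EGLN1, the prolyl hydroxylase that marks HIF1A for destruction, was at 14.2, 21.4 and 15 FPKM in siChe-1 libraries, against 16.2, 19.6 and 16.4 FPKM in siControl libraries (difference 0.03 ± 0.17; limma, adjusted p = 0.917). EGLN3 and CA9, a pair of strongly hypoxia-induced genes, were not in the FPKM table. EGLN3 had 2 and 0 whole reads in siChe-1 replicates 1 and 2, against 3, 1 and 6 in siControl replicates 1 to 3. CA9, a carbonic anhydrase of the cell surface, had 5 and 5, against 2, 6 and 1. Both were too low to compare at this depth.

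VEGFA and KDM3A rose. KDM3A, a histone H3 lysine 9 demethylase and HIF target (chromosome 2, 86668271 to 86719839, plus strand), had 23.1, 25.2 and 24.9 FPKM in siChe-1 libraries, against 18.2, 18.6 and 19.7 FPKM in siControl libraries. It rose by 0.45 ± 0.069 (SE; limma, adjusted p = 0.00392), with no overlap. VEGFA, the growth factor of blood vessels, had 49.3, 64.5 and 54.8 FPKM in siChe-1 libraries, against 42.0, 48.0 and 45.6 FPKM in siControl libraries, and rose by 0.39 ± 0.12 (SE; limma, adjusted p = 0.0393). Its groups did not overlap, but the call was lost under 8 of 14 settings of the FPKM test, among them without the second siChe-1 value, with adjusted p reaching 0.117. ANKRD37, another HIF target, went the other way: it had 5.34, 4.79 and 5.93 FPKM in siChe-1 libraries, against 9.24, 8.91 and 11.2 FPKM in siControl libraries, and fell by 0.73 ± 0.11 with the minimum lowered to 1 (SE; limma, adjusted p = 0.00377), where 13.8% of all genes were called lower.

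The most abundant hypoxia gene, P4HA1, a subunit of the enzyme that hydroxylates collagen proline, was at 70.6, 81.6 and 69.9 FPKM in siChe-1 libraries, against 89.1, 93 and 92.1 FPKM in siControl libraries. The groups did not overlap, but the difference of -0.21 ± 0.096 did not pass (limma, adjusted p = 0.138). P4HA1 was called lower in 3 of 14 settings of the FPKM test. These were no minimum level, FPKM as deposited and list position as a block. The mitophagy receptor BNIP3 had 54.6, 68 and 45.9 FPKM in siChe-1 libraries, against 63.9, 72.0 and 90.4 FPKM in siControl libraries, which overlapped (difference -0.33 ± 0.17; limma, adjusted p = 0.188). Its paralogue BNIP3L differed by 0.00 ± 0.12 (limma, adjusted p = 0.998). ADM, the vasodilator adrenomedullin, differed by -0.29 ± 0.15 (limma, adjusted p = 0.186). NDRG1 was below the minimum, at means of 3.20 FPKM in siChe-1 and 3.68 FPKM in siControl libraries. The authors' Cuffdiff test put BNIP3 (log2 ratio -0.43, q = 0.00204) and ADM (-0.39, q = 0.007) lower. It put the most abundant KDM3A transcript higher (0.35, q = 0.0177). BNIP3L (q = 0.718), EGLN1 (q = 0.864) and NDRG1 (q = 0.56) did not pass in it. ANKRD37, which fell with limma, did not pass either (log2 ratio -0.87, Cuffdiff q = 0.414). Nor did any VEGFA transcript, the most abundant having a log2 ratio of 0.10 (Cuffdiff q = 0.775). The share of all transcripts passing there was not counted.

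With edgeR on the recovered whole reads of 5 libraries, scaled by TMM, 12 of 33 tested genes of the list were lower and 4 higher, against 15.1% and 13.5% of all 12563 genes. All 11 genes that were called on FPKM and could be tested on reads were called in the same direction there. GAPDH and PKM2 could not be tested, since their reads were not recovered. Of 15 tested enzymes 8 were lower and 1 higher, and of 10 tested hypoxia genes 2 were lower and 2 higher. Called on reads and not in the FPKM test at the minimum of 10 were PFKL and SLC2A3, which rose, and PDK1, ADM and ANKRD37, which fell.

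Against the spike-ins, most genes fell, the genes of the list among them. Of 12591 genes at a mean of 10 or more, 63.5% were called lower in the authors' deposited table and 0.0635% higher, with a median log2 fold change of -1.25 and a lower quartile of -1.51. Of the 35 genes of the list at that level, the authors' deposited table calls 26 lower and 1 higher, with a median of -1.56. The 17 enzymes had a median of -1.77 in it, and the 10 hypoxia genes one of -1.28. With edgeR on the recovered reads and spike-in factors, 32 of 33 genes were lower, against 84.4% of all genes, and 1 was higher, against 0.191%. LDHB, at -2.40, SLC16A1, at -2.35, and HK2, at -2.14, were the lowest of the 35 in the authors' deposited table. SLC2A3 was the only one called higher, with a log2 fold change of 0.98 (adjusted p = 0.0383 in the authors' deposited table). KDM3A, at -0.90, and VEGFA, at -0.89, were not called in the authors' deposited table (adjusted p = 0.0598 and 0.0575), although both rose relative to other genes. With edgeR on the recovered reads and spike-in factors both were lower, KDM3A by -0.90 ± 0.33 (adjusted p = 0.00923) and VEGFA by -0.89 ± 0.32 (adjusted p = 0.00906) on the log2 scale (SE).

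By library, the spike-in-normalized reads of LDHB were 4263 and 5093 in siChe-1 replicates 1 and 2, against 17545, 29630 and 26975 in siControl replicates 1 to 3. Those of SLC2A3 were 134 and 162 in siChe-1, against 50.05, 90.5 and 84.5 in siControl replicates. In both genes the groups did not overlap, and siControl replicate 1 was the lowest of its group. The library of siChe-1 replicate 3 is not in that table. Its 379232 spike-in reads lay within the 351573 to 519573 of the siControl libraries, while siChe-1 replicates 1 and 2 had 835414 and 1041244, and its level on this scale was not tested. How the spike-ins were dosed was not given in the sources used here, so less RNA per cell, fewer cells and unequal spike-in cannot be told apart.

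**Figure D5:**
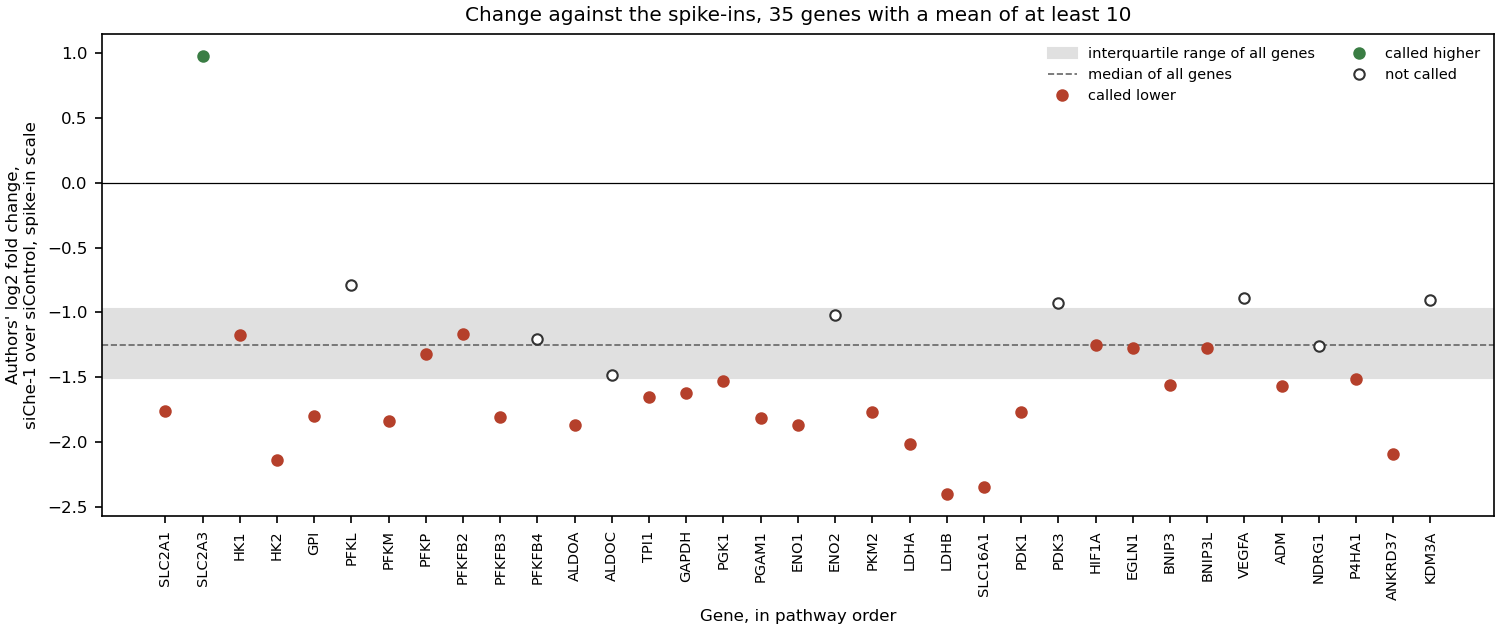
The authors' log2 fold change of siChe-1 over siControl on the spike-in scale for 35 genes of the list, in pathway order. The dashed line is the median of all 12591 genes (-1.25) and the band their interquartile range. SLC2A3 (0.98) stands alone above 0, and LDHB (-2.40), SLC16A1 (-2.35) and HK2 (-2.14) lie lowest.

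Of 92 other genes of sugar metabolism and the hypoxia response, 47 were tested on FPKM, of which 9 fell and 6 rose, with a median of -0.008. DLAT, the acetyltransferase of the pyruvate dehydrogenase complex, had 18.9, 18.9 and 18.9 FPKM in siChe-1 libraries, against 35.2, 33.1 and 34.1 FPKM in siControl libraries, and fell by 0.73 ± 0.065 (SE; limma, adjusted p = 0.000766). STBD1, a glycogen-binding protein, fell by 0.66 ± 0.071 (SE; limma, adjusted p = 0.00115), but did not pass with edgeR on its 29 to 107 recovered reads per library (-0.67 ± 0.41, adjusted p = 0.245). HIF1AN, the asparagine hydroxylase that blocks HIF activity, had 22.1, 25.3 and 24.6 FPKM in siChe-1 libraries, against 14, 14.4 and 13.9 FPKM in siControl libraries, and rose by 0.82 ± 0.079 (SE; limma, adjusted p = 0.000902). PDP1, the phosphatase that reverses the pyruvate dehydrogenase kinases, rose by 0.61 ± 0.11 (SE; limma, adjusted p = 0.0071). MIF, a cytokine and the most abundant of them, fell by 0.30 ± 0.095 (SE; limma, adjusted p = 0.0487), and did not pass with edgeR on recovered reads (adjusted p = 0.0789). The 9 genes called lower and the 6 called higher correspond to shares of the 47 that lie near the background of 15.1% in each direction.

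Most glycolytic enzymes have processed pseudogenes, and GAPDH, PGK1, ENO1, TPI1, LDHA, LDHB, ALDOA, PKM2 and PGAM1 could share reads with near-identical copies, depending on how the authors' counting treated them, so their levels are uncertain to that extent.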

How the data were processed

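RNA sequencing libraries were grouped by their titles. Per the submitters' processing notes, the tools were TopHat with Cufflinks and Cuffdiff, and HTSeq with DESeq2, on hg19, with neither versions nor roles given. The authors deposited spike-in counts per library, a transcript table with 3 FPKM values per group, the log2 of their ratio and p-values, and, per the file headers, a table of spike-in-normalized signal (group means of reads over size factors) with p-values, the fold ratio and its log2. The FPKM lists carry no replicate number.

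FPKM of transcripts were summed by gene, rescaled by the median of ratios over genes with a mean of at least 10 and tested with limma 3.58.1 with a mean-variance trend on log2(FPKM + 1), which understates the change of low genes. P-values are two-sided and adjusted by Benjamini-Hochberg over all tested genes, with a threshold of 0.05. On the spike-in scale the authors' adjusted p was counted. Whole reads of 5 libraries were recovered from the signal for 16416 of 16444 genes (99.83%, to a relative tolerance of 8e-15), which is why siChe-1 replicate 3 has none: with siChe-1 replicates 1 and 2, 100% of low means were whole reads, and with other pairs 0%. They were tested with edgeR 4.0.16 (quasi-likelihood) and DESeq2 1.42.0. On simulated data with 200 changed genes among 6285, limma found 37.5% of log2 changes of 0.5 (3 false calls) and 91.5% of those of 1 (6 false calls). With edgeR and TMM it was 40% of those of 0.5 among 12457 genes (11 false calls) and 85% of those of 1 among 12441 genes (19 false calls). Both simulations drew noise independently for each gene and library. They changed a smaller share of genes than the 30.2% called on FPKM, so these rates need not hold for the data. The intervals given are standard errors or SDs between libraries.

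Genes were named by a rule: every gene of the list called on FPKM, or called against the main direction in the authors' table, and the most abundant gene of each step. Of the 92 other genes it takes the 2 with the smallest p in each direction and the most abundant. PFKL, TPI1, PDK1, ANKRD37 and the low isozymes were described beyond it, to account for the list. The genes and lists were chosen with earlier results of these data known. PKM2 transcripts were typed by their exons, and promoter windows were read from RefSeq. Whether reads were counted by strand was not given in the sources used here. Alternatives varied the pseudocount, minimum level, scaling, tool, replicate block and libraries.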

Additional observations from a re-analysis of the deposited data

How the results depend on the processing

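Within each scale, no called result reversed its direction under any alternative run. Between scales, KDM3A, VEGFA and PFKL were called higher with edgeR TMM and lower with edgeR and spike-in factors. HK2, GPI, ALDOA, PKM2, LDHA, LDHB, SLC16A1 and KDM3A kept their calls in all 14 settings of the FPKM test. The count of 11 genes lower ranged from 7 to 10 when 1 FPKM value was left out, against 7.98% to 14.2% of all genes. The 2 higher ranged from 1 to 3, against 7.73% to 13.6%. The count higher was 1 with FPKM as deposited and 1 with the median of ratios taken before the filter, against 9.42% and 10.1% of all genes. On recovered reads it was 4 with edgeR TMM and 4 with edgeR on the median of ratios, against 13.5% and 13.8% of all genes. It ranged from 1 to 5 when 1 siControl library was left out (chosen after seeing the data), against 9.04% to 16.3%. The median difference ranged from -0.48 to -0.16 when any 1 library was left out, and was -0.18 without siControl replicate 2. On the spike-in scale, with edgeR on recovered reads, 22 to 32 genes were lower and 0 to 1 higher when 1 library was left out, the fewest without siChe-1 replicate 2, where 22.8% of all genes were lower, and 32 without siControl replicate 1, where 93.2% were. SLC2A3 was lost as higher without siChe-1 replicate 1, siChe-1 replicate 2 or siControl replicate 3. The causes of these changes were not tested. Changes near 0.5 on the log2 scale were often missed in simulation, so genes not called are not shown to be unchanged.

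The replicate numbers pair no samples by label. With the replicate block, edgeR on recovered reads gave 5 higher and 16 lower relative to other genes, against 14.9% and 17.3% of all genes, and 0 lower and 0 higher on the spike-in scale, where it left 1 residual degree of freedom and called 58 genes lower and 1 higher in all. Same-numbered libraries correlated at 0.22 and 0.24 in their deviations. Only siChe-1 replicates 1 and 2 have reads, and centring on their mean makes their deviations mirror images, so these values are not independent. For the FPKM list positions the correlations were 0.40, 0.66 and 0.18, and the third siChe-1 value correlated better with the first siControl value (0.26). A block on list position, chosen after seeing the data, called 16 genes lower and 3 higher, against 57.8% of all genes in either direction. It lost none of the 13 calls and added ADM, P4HA1, PDK1, PFKL, PGK1 and TPI1.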

Other observations

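The second listed FPKM value of each group carried higher levels of many genes of the list, whether or not Che-1 was silenced. After rescaling, PFKFB4 had 0.95, 4.26 and 0.94 FPKM in siChe-1 libraries, against 0.82, 3.24 and 2.31 FPKM in siControl libraries. PGK1 had 180, 256 and 191 FPKM in siChe-1 libraries, against 214, 294 and 227 FPKM in siControl libraries. ALDOC had 3.39, 6.33 and 3.64 FPKM in siChe-1 libraries, against 3.46, 7.76 and 3.95 FPKM in siControl libraries. The second value was the highest of both groups for 16 of the 24 tested genes (66.7%), against 27.2% of all 6285 tested genes. On the recovered reads, scaled to library totals, replicate 2 was the highest in both groups for 22 of 33 genes (66.7%), against 30.8% of 12563 genes. HIF1A went the other way and was lowest in the second value of both groups, at 61.4 FPKM against 88.4 and 79.3 in siChe-1 libraries, and at 58.0 FPKM against 84.1 and 69.5 in siControl libraries. SLC16A1 and ANKRD37 were also lowest in that value in both groups. SLC16A1 had 37.5, 33.4 and 35.6 FPKM in siChe-1 libraries, against 79.9, 62.6 and 71.9 FPKM in siControl libraries.

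The same values stood apart at single transcripts. The GAPDH transcript NM_001256799 had 242, 3.65 and 320 FPKM in siChe-1 libraries, against 313, 21.6 and 224 FPKM in siControl libraries. The HIF1A transcript NM_001243084 had 54.2, 4.25 and 38.6 FPKM in siChe-1 libraries, against 47.4, 8.96 and 35.3 FPKM in siControl libraries. What sets these libraries apart was not tested.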
